A study of Mus musculus with 4 samples.

Results

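ILC1-like cells are the natural killer (NK) lineage cells of these mammary tumours in which at least 1 transcript of Itga1, Cxcr6 or Gzmc was counted. They were chosen by a gate on raw counts of unique molecular identifiers (UMIs, each standing for 1 captured transcript). A member had at least 1 UMI of Ncr1 plus Klrb1c, no UMI of Cd3d, Cd3e or Cd3g, at least 1 UMI of Itga1 plus Cxcr6 plus Gzmc, under 2 UMIs of Mki67 plus Top2a, under 3 UMIs of Lyz2 and no UMI of Siglech. The gate took 452 of 14555 kept cell barcodes (3.11%). The choice used measured values, so the levels of these 12 genes describe the gate and carry no test.

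Tumours were grown from H605, a HER2+ mouse mammary tumour line, which was placed in the mammary pad of hosts of strain FVB/NJ at 6 to 8 weeks of age. All hosts received the same line, so the genotype that differed was the host's: WT, or IL1α-/- mice without the gene for interleukin 1 alpha. Tumours were harvested on day 14, digested, enriched for live cells with no sort for a lymphocyte marker, and sequenced with the 10x Genomics 3' v3.1 chemistry. Each group had 2 tumours, collected as pairs on separate days, and the transplanted cells kept their own Il1a gene in both groups. The labels do not tie a replicate number to a day, and p-values measure the spread between these 4 tumours.

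NK cells and group 1 innate lymphoid cells (ILC1) are lymphocytes without a rearranged antigen receptor that share Ncr1 and produce interferon gamma. ILC1 are mostly tissue-resident and carry the collagen-binding integrin CD49a (Itga1), CXCR6 and the death ligand TRAIL (Tnfsf10). Circulating NK cells carry CD49b (Itga2) and the egress receptor S1pr5, depend on Eomes, and kill with perforin and granzymes. In tumours, NK cells exposed to TGF-beta can acquire CD49a and CXCR6, so these genes do not separate a lineage from a state.

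The label was checked against markers that the gate did not use. Xcl1, a chemokine of NK cells and ILC1 that attracts cross-presenting dendritic cells, was at 2564 and 2052 CPM (UMIs scaled to a common library total) in ILC1-like cells of the WT hosts and at 1204 and 982 CPM in those of the IL1α-/- hosts. Free RNA, read from barcodes with at most 100 UMIs, held 139, 175, 43.0 and 24.5 CPM of Xcl1 in the same order. Eomes and Itga2, which mark conventional NK cells, were also present: Eomes stood at 391, 316, 197 and 282 CPM and Itga2 at 66.5, 70.8, 46.3 and 91.0 CPM in WT 1, WT 2, IL1α-/- 1 and IL1α-/- 2. Zfp683, the gene of the residency factor Hobit, had no UMI in 452 cells, which allows a share of up to 0.664% of cells with a UMI. The cells held NK genes beside the ILC1 genes they were selected on, and "ILC1-like" names the gate, not a lineage.

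Il1a checked the labels: the kept barcodes held 67 and 112 Il1a UMIs in the WT tumours and 1 and 0 in the IL1α-/- tumours. ILC1-like cells held no Il1a UMI in any tumour. Libraries ranged from 6705368 to 29001333 UMIs, with both IL1α-/- libraries below both WT libraries, and the deposited matrices left 3213 to 4006 kept barcodes per tumour. Of the kept barcodes 13 sequences occurred in more than 1 library, 2 of them among ILC1-like cells. In ILC1-like cells Malat1, a nuclear RNA, took 1.12% and 1.16% of UMIs in WT and 2.78% and 1.97% in IL1α-/- hosts. Ribosomal protein genes took 30.0% and 28.5% against 26.0% and 24.8%. The part of these RNA composition differences in the host results was not tested.

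Fewer ILC1-like cells were counted in the IL1α-/- hosts. They numbered 180 and 178 in the WT tumours and 56 and 38 in the IL1α-/- tumours, or 4.50% and 4.44% against 1.74% and 1.14% of kept barcodes. Among gated NK lineage cells, that is ILC1-like cells plus NK cells that met every other condition but had no UMI of the 3 ILC1 genes, their share was 25.0% in WT 1 (95% Clopper-Pearson interval 21.9 to 28.4) and 26.5% in WT 2 (23.2 to 30.0). It was 13.0% in IL1α-/- 1 (9.99 to 16.6) and 10.9% in IL1α-/- 2 (7.82 to 14.6). The groups did not overlap. Means were 25.8% ± 1.03 in WT and 11.96% ± 1.51 in IL1α-/- hosts (SD, n = 2 tumours per group), which differ by -13.8 points, and the exact two-sided permutation p was 0.33, the smallest that 2 against 2 tumours can give. Within replicate numbers the differences were -12.01 and -15.6 points.

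Depth moved with this share. The median UMIs per ILC1-like cell were 3856 and 5261 in WT and 1361 and 2869 in IL1α-/- hosts. After each barcode was thinned to 800 UMIs and gated again, the shares were 10.1% and 10.0% in WT and 9.28% and 3.64% in IL1α-/- hosts. IL1α-/- 1 then lay within the counting intervals of both WT tumours (7.65 to 13.0 and 7.52 to 13.1), and IL1α-/- 2 (1.68 to 6.80) lay below them. The mean difference was then -3.61 points (10.1% ± 0.038 against 6.46% ± 3.98). Intervals cover counting error only.

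**Figure D1:**
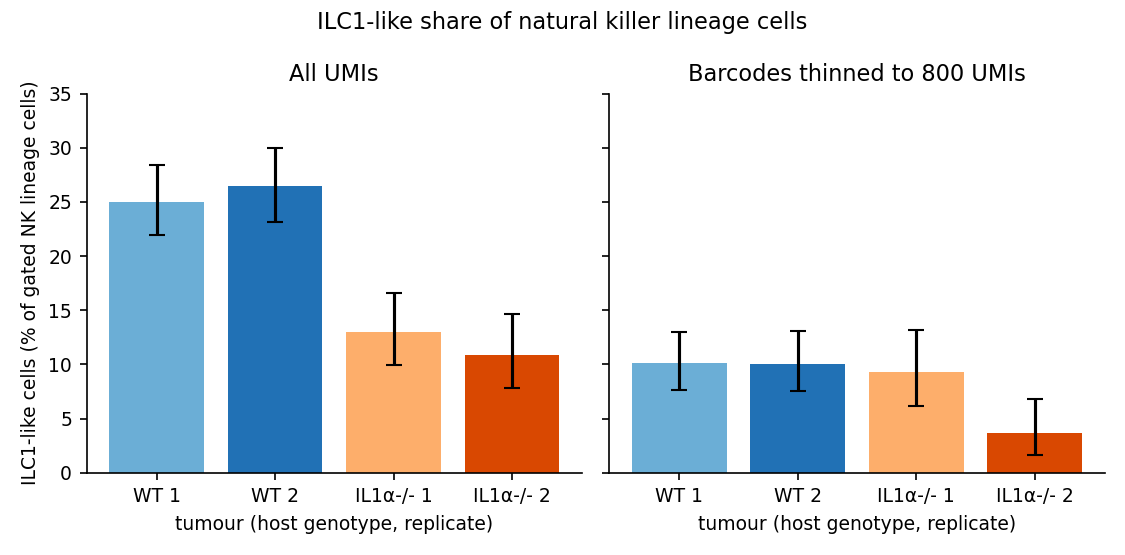
ILC1-like cells as a percentage of gated NK lineage cells in each tumour, with all UMIs (left) and after thinning each barcode to 800 UMIs (right). Bars are single tumours and error bars are 95% Clopper-Pearson intervals. With all UMIs both IL1α-/- tumours (13.0% and 10.9%) lie below both WT tumours (25.0% and 26.5%), and after thinning IL1α-/- 1 (9.28%) lies within the intervals of both WT tumours (10.1% and 10.0%).

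The 3 ILC1 genes were seldom counted together in 1 cell. Cells with Itga1 as the single gene made up 35.6%, 33.7%, 37.5% and 13.2% of ILC1-like cells in WT 1, WT 2, IL1α-/- 1 and IL1α-/- 2. Cells with Cxcr6 alone made up 38.9%, 29.8%, 44.6% and 73.7%, so IL1α-/- 2 had the smallest share of cells with Itga1 alone and the largest share with Cxcr6 alone. Cells with at least 2 of the 3 genes made up 18.3% and 27.0% in WT and 5.36% and 5.26% in IL1α-/- hosts, whose cells were shallower. Just inside the threshold, 232 of the 452 cells had exactly 1 UMI of the 3 genes and 91 had exactly 1 UMI of Ncr1 plus Klrb1c. The 232 were 92 of 180 and 75 of 178 cells in WT and 40 of 56 and 25 of 38 in IL1α-/- hosts. Free RNA of the 3 genes together was 59.6 and 71.6 CPM in WT and 151 and 139 CPM in IL1α-/- tumours. The part of free RNA in gate membership was not tested. Just outside, 60 cells had 1 Cd3 UMI, 40 had at least 2 UMIs of Mki67 plus Top2a, 5 had at least 3 UMIs of Lyz2 and 1 had Siglech.

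**Figure D2:**
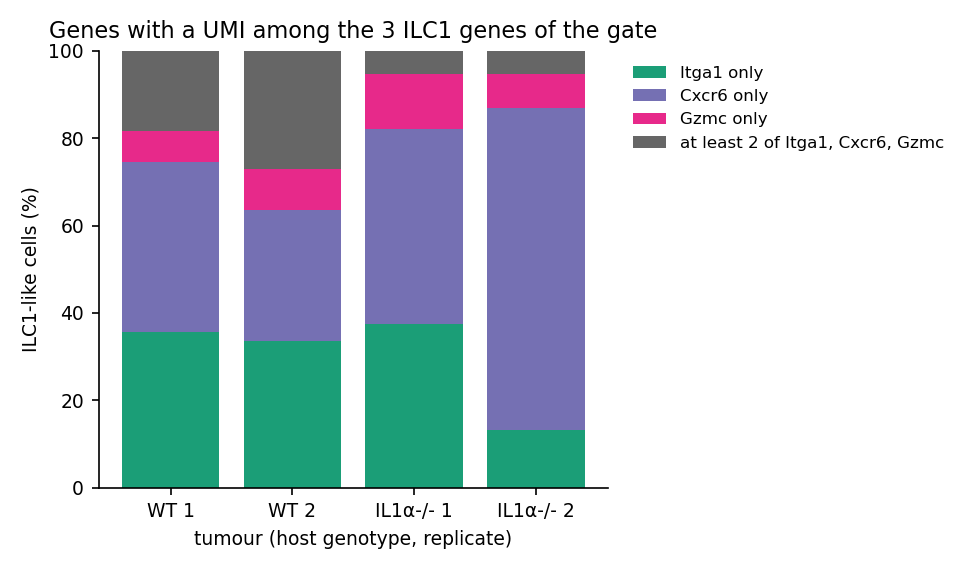
Percentage of ILC1-like cells of each tumour by the ILC1 gene or genes with a UMI. Each bar is 1 tumour, and segments are cells with Itga1, Cxcr6 or Gzmc alone or with at least 2 of them. The segment for at least 2 genes is 18.3% and 27.0% in WT and 5.36% and 5.26% in IL1α-/- tumours.

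In the summed counts, Ncr1, the NKp46 receptor, was at 929 and 858 CPM in WT and 996 and 828 CPM in IL1α-/- hosts. Itga1 was at 191, 180, 313 and 100 CPM, and Cxcr6, a receptor for CXCL16, at 282, 203, 417 and 409 CPM. Gzmc, a granzyme, was at 122, 379, 278 and 873 CPM, highest in IL1α-/- 2. That highest level rested on 96 UMIs in 5 cells, of which 2 held at least 2 UMIs of the 3 ILC1 genes. These levels are fixed in part by the gate.

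ILC1-like cells differed from NK cells without ILC1 genes of the same tumours in the direction of lists of ILC1 and conventional NK genes. UMIs were summed per tumour and population and compared within tumours with edgeR's quasi-likelihood test and Benjamini-Hochberg (BH) adjustment, with 452 cells against 1718. Of 7741 genes tested outside the gate, 384 passed an adjusted p of 0.05 (4.96%), 144 higher (1.86%) and 240 lower (3.1%). Of 22 tested genes of the ILC1 list 16 were higher and 2 lower, with a median log2 difference of 0.95 against -0.01 over all genes. Of 23 tested genes of the conventional NK list 1 was higher and 16 lower, with a median of -1.09. Both lists were chosen with earlier results of these data known, so these counts are not independent support for the label. A gate on 1 rare UMI also picks deeper cells: NK cells without ILC1 genes had median UMIs of 2815, 3586, 1085 and 2237, each below the ILC1-like cells of the same tumour. With barcodes thinned to 800 UMIs 28 genes passed, without WT 1 225, without WT 2 175, and DESeq2 called 124. With barcodes of at least 5 tumour epithelium and fibroblast UMIs left out 335 passed, 161 higher and 174 lower. Of the 384, 299 were still tested and 262 still passed.

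Among secreted ligands, Xcl1 was at 2506, 1998, 1169 and 943 CPM in ILC1-like cells and at 960, 826, 481 and 262 CPM in NK cells of WT 1, WT 2, IL1α-/- 1 and IL1α-/- 2. All 4 tumours showed the higher level in ILC1-like cells (log2 difference 1.40, SE 0.09, edgeR adjusted p 1.9e-18, and 1.35 with adjusted p 6.8e-07 after thinning). Ltb, the lymphotoxin beta chain, was at 1792, 2015, 562 and 672 CPM against 1043, 984, 381 and 330 CPM, again higher in each tumour (0.88, SE 0.09). Tnfsf10 was at 234, 243, 169 and 34.9 CPM against 116, 115, 47.6 and 8.18 CPM (1.12, SE 0.14), with the lowest value of both populations in IL1α-/- 2. Ccl1, a ligand of CCR8, was counted in ILC1-like cells of the WT tumours alone, at 108 and 134 CPM, against 0.566 and 8.20 CPM in their NK cells.

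Other chemokines went the opposite way. Ccl5, which attracts T cells and NK cells, was at 1028, 983, 2169 and 4888 CPM in ILC1-like cells and at 3204, 4245, 8370 and 9510 CPM in NK cells, lower in each tumour (-1.66, SE 0.10, edgeR adjusted p 2.6e-20). Ccl4 (-1.67, SE 0.14) and Ccl3 (-1.67, SE 0.25), chemokines of activated NK cells, were lower too. Of the granule proteins, Gzma was at 827, 1425, 1337 and 2592 CPM against 1660, 4141, 3341 and 5688 CPM (-1.25, SE 0.08). Prf1, perforin, was lower by a smaller amount (-0.52, SE 0.10), and Cma1, mast cell chymase, was at no more than 2.12 CPM in ILC1-like cells against 16.4 to 125 CPM in NK cells. Gzmd was counted in ILC1-like cells of WT 2 and IL1α-/- 2 alone, at 49.8 and 236 CPM. It belongs to a cluster of near-identical granzymes with Gzmc, so its counts cannot be held apart from the gate.

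Of 15 tested trafficking genes 6 were lower in ILC1-like cells and 1, the retention receptor Cd69 (0.72, SE 0.15), was higher. Itga2, of the NK list, was at 65.0, 68.9, 45.0 and 87.3 CPM against 162, 185, 195 and 238 CPM (-1.43, SE 0.15, edgeR adjusted p 5.9e-11), and the 2 populations did not overlap. The transcription factor Klf2, which promotes circulation (-1.97, SE 0.18), the egress receptor S1pr5 (-3.03, SE 0.41), the integrin Itga4 (-1.15, SE 0.14) and the NK maturation factor Zeb2 (-1.39, SE 0.18) also fell. Eomes was lower by less (-0.49, SE 0.11), and Tbx21, which encodes T-bet, did not pass. Klra4 was lower as well (-1.45, SE 0.13), with the reserve that the Klra receptors are close copies.

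Receptors and signalling genes on the higher side included Thy1 (1.42, SE 0.14), the activating receptor Cd226 (1.24, SE 0.14), the inositol phosphatase Inpp4b (1.41, SE 0.13), the Notch transcription factor Rbpj (1.36, SE 0.13) and Id2, an inhibitor required by innate lymphocytes (0.68, SE 0.09). The cytokine receptors Il7r (1.04, SE 0.19) and Il2ra (2.27, SE 0.38) and the checkpoint gene Ctla4 (1.65, SE 0.29) were higher, but Ctla4 and Il2ra were below their free RNA levels in each tumour. Of 12 inhibitory receptor genes 9 were tested and 4 were higher. Of 16 immediate early genes 5 were lower, among them Fos (-1.23) and Atf3 (-2.55). Markers of other cells moved with this comparison: 6 of 7 tested tumour epithelium genes and 6 of 8 fibroblast genes were lower in ILC1-like cells, and the part of such RNA in the immediate early values was not tested.

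**Figure D3:**
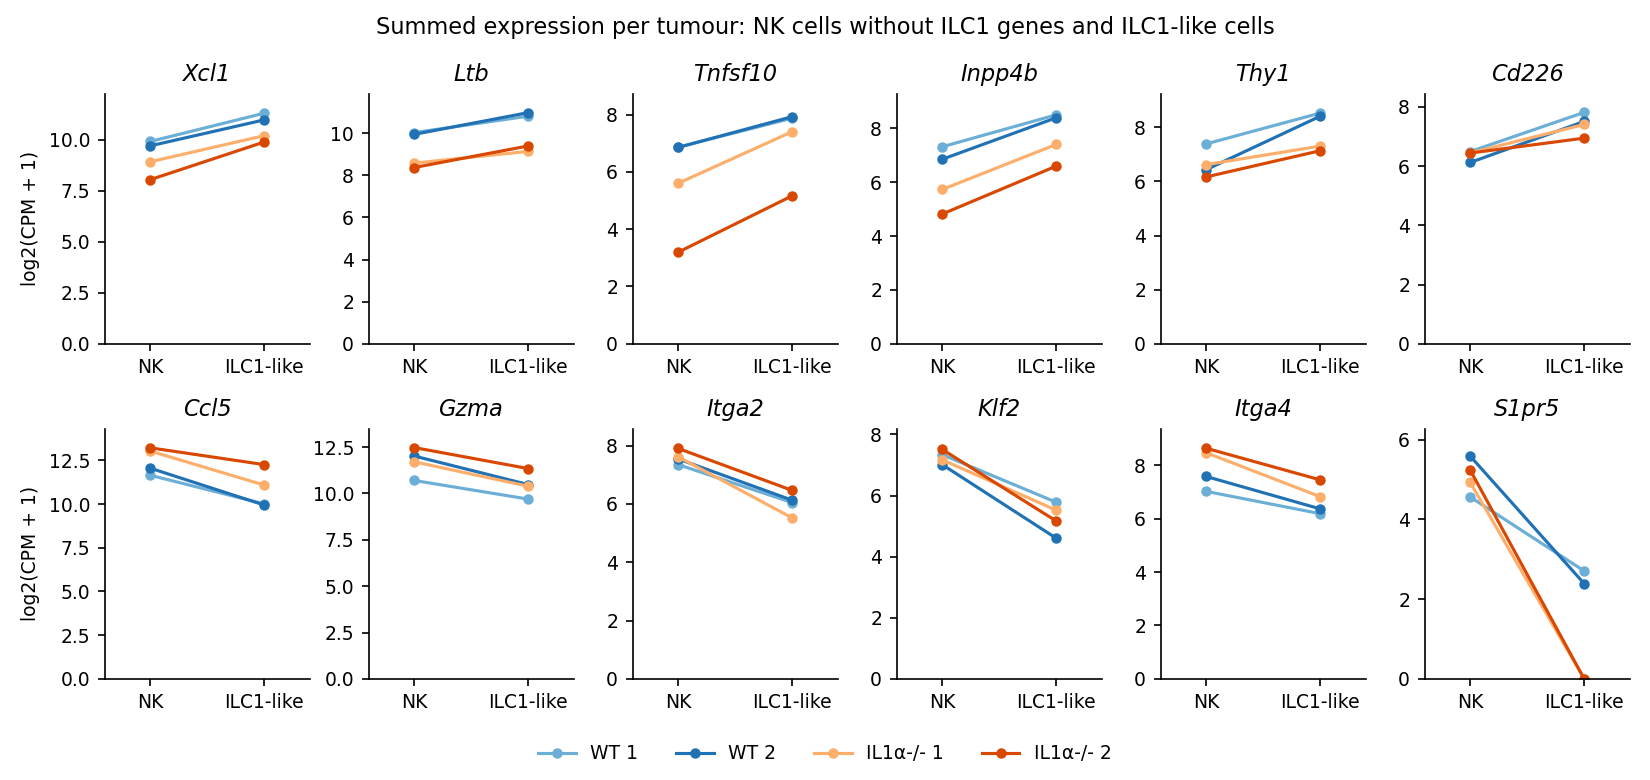
Summed expression per tumour, as log2(CPM + 1), in NK cells without ILC1 genes and in ILC1-like cells. Lines join the populations of 1 tumour. The upper 6 genes were higher in ILC1-like cells of all 4 tumours and the lower 6 genes were lower in all 4. Of the 384 genes called, 264 kept 1 sign in all 4 tumours, as did 20.2% of genes tested. Genes named for their adjusted p were picked among the 264.

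ILC1-like cells were also set against 379 cells that met every condition but had at least 1 UMI of a Cd3 gene. These counterparts carried T cell genes in all 4 tumours. The Cd3 condition set the populations apart, so lower T cell genes in ILC1-like cells follow in part from the gate. The counterparts were also deeper in each tumour, with median UMIs of 4243, 5436, 2248 and 3447 against 3856, 5261, 1361 and 2869. Of 6278 genes tested by edgeR's quasi-likelihood test 136 passed (2.17%), 56 higher in ILC1-like cells (0.892%) and 80 lower (1.27%). Of 12 T cell marker genes 11 were lower, among them Trac, the constant chain of the alpha T cell receptor, at 9.55, 7.32, 33.8 and 44.2 CPM against 184, 137, 222 and 272 CPM (-3.77, SE 0.26). The exception was Trbc1, a constant chain of the beta T cell receptor. Scaled to all UMIs, Trbc1 was at 903, 1035, 901 and 1128 CPM against 852, 874, 460 and 710 CPM. Bcl11b, a T lineage factor, was lower by 3.66 (SE 0.28) on the log2 scale. Of 5 tested gamma-delta T cell genes 3 were lower: Tcrg-C2 was at 0 in ILC1-like cells of each tumour, and Tcrg-C1 and Trdc were lower, with Trdc at 117, 136, 56.3 and 97.3 CPM against 418, 535, 151 and 325 CPM.

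Of 13 tested cytotoxic genes 5 were higher than in the Cd3-positive counterparts, none was lower and the others did not pass. Tyrobp, the DAP12 adaptor of NK receptors, was at 1462, 1747, 1857 and 1830 CPM against 659, 822, 959 and 650 CPM, without overlap (1.17, SE 0.09, edgeR adjusted p 1.0e-07). Prf1 (1.00, SE 0.15), Gzma (0.84, SE 0.13), Klrb1b (1.89, SE 0.17), Irf8 (1.03, SE 0.18) and Xcl1 (0.45, SE 0.11) were higher. Il7r (-1.50, SE 0.19), Itgae, the CD103 integrin (-1.84, SE 0.27), and Ccl5 (-0.81, SE 0.16) were lower. Markers of other cells moved with this comparison: 2 of 7 tested fibroblast genes (Dcn and Lum) were higher in ILC1-like cells, as were Lcn2, Cd74, H2-Ab1 and Tcf4. Fibroblast genes summed to 54.2, 2491, 213 and 26.7 CPM in ILC1-like cells and 64.8, 58.7, 1918 and 70.6 CPM in the counterparts, and their part in the result was not tested. Without WT 1 52 genes passed, without WT 2 90, and DESeq2 called 55.

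The host comparison asked whether ILC1-like cells of IL1α-/- hosts differed from those of WT hosts. Of 5571 genes tested, 204 passed in edgeR's quasi-likelihood test (3.66%), 120 higher in IL1α-/- hosts (2.15%) and 84 lower (1.51%). Each of the 204 separated the WT from the IL1α-/- tumours, a pattern that 50.2% of tested genes also showed, and the median log2 difference over all genes was -0.04. The ILC1-like sums held 756226 and 1027987 UMIs in WT but 84369 and 112557 in IL1α-/- hosts. Without IL1α-/- 1 33 genes passed, without IL1α-/- 2 13 passed, without WT 2 114 passed, and DESeq2 called 69, of which 67 were among the 204. Of 46 named genes that passed, 8 did so with any 1 tumour left out: Ltb, Ccl1, Crem, Fosl2, Gpr132, Ifngr1, Serpinb9 and Vps37b. Every other called gene named here lost its call, or was no longer tested, when at least 1 tumour was left out. The filter on low counts was run again in these fits, and of the 204 genes 184 were still tested without WT 1 and 183 without WT 2. Among those 8, free RNA of Crem, Fosl2, Gpr132, Ifngr1, Serpinb9 and Vps37b was also higher in both IL1α-/- tumours than in both WT tumours. Free RNA of Ltb overlapped between hosts and that of Ccl1 was lower. The part of free RNA in these calls was not tested.

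The ligands Ltb, Xcl1 and Ccl1 were lower in IL1α-/- hosts. Ltb (chromosome 17, 35194439 to 35196320, GRCm38) was at 1834 and 2069 CPM in WT and 579 and 700 CPM in IL1α-/- hosts, against free RNA of 203 to 315 CPM. It was lower in both IL1α-/- tumours than in both WT tumours (-1.60, SE 0.22, edgeR adjusted p 0.00011). Xcl1 (chromosome 1, 164931644 to 164935527) fell from 2564 and 2052 CPM to 1204 and 982 CPM (-1.08, SE 0.22, adjusted p 0.0060), with free RNA of Xcl1 also lower in IL1α-/- tumours. Its adjusted p was 0.070 without IL1α-/- 1 and 0.16 without IL1α-/- 2. Ccl1 had 78 and 126 UMIs in WT (110 and 137 CPM) and none in IL1α-/- hosts, which is at least 8.22-fold lower when 3 UMIs are allowed over the IL1α-/- group, while IL1α-/- free RNA still held 20.2 and 13.1 CPM. Tnfsf10 stood at 239, 249, 174 and 36.4 CPM and did not pass (-1.31, SE 0.38, adjusted p 0.054).

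Ccl5 went up. Its level was 1052 and 1010 CPM in WT and 2234 and 5094 CPM in IL1α-/- hosts (1.84, SE 0.27, edgeR adjusted p 0.00018), with IL1α-/- 2 above IL1α-/- 1. Free RNA of Ccl5 rose over the same tumours, from 379 and 639 to 3366 and 2432 CPM, and its part in the result was not tested. Without IL1α-/- 2 the adjusted p was 0.071. Ifng, the effector cytokine that defines group 1 cells, was at 93.5, 89.3, 11.6 and 54.6 CPM and rested on 1 and 6 UMIs in IL1α-/- hosts (-1.36, SE 0.51, adjusted p 0.15). Ccl4 was at 197, 96.9, 127 and 218 CPM, with overlapping groups (0.29, adjusted p 0.76), and Ccl3 had 3 UMIs in the IL1α-/- group.

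Gzma, Gzmb and Prf1 did not pass. Gzma was at 847, 1464, 1378 and 2702 CPM (0.83, SE 0.27, edgeR adjusted p 0.088), Gzmb at 273, 765, 243 and 382 CPM (-0.72, SE 0.36, adjusted p 0.31) and Prf1 at 348, 479, 313 and 491 CPM (-0.03, SE 0.26, adjusted p 0.98). For each of these genes the groups overlapped. Of 13 tested cytotoxic genes 2 were higher and none lower: Serpinb9, an inhibitor that shields killer cells from their own granzyme B, at 268 and 313 CPM in WT and 938 and 1001 CPM in IL1α-/- hosts (1.74, SE 0.22, adjusted p 4.7e-05), and Serpinb6b (1.30, SE 0.25). Free RNA of Serpinb9 also differed, at 57.5 and 80.1 against 186 and 220 CPM.

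Inpp4b and Bcl2 were lower and several NK list genes higher. Inpp4b was at 371 and 345 CPM in WT and 174 and 100 CPM in IL1α-/- hosts (-1.42, SE 0.30, edgeR adjusted p 0.0076), with free RNA between 56.3 and 82.0 CPM. Bcl2, the survival factor, was at 568 and 649 against 301 and 255 CPM (-1.14, SE 0.25, adjusted p 0.0096). On the higher side were Ly6c2, at 77.9 and 75.1 against 150 and 509 CPM (2.16, SE 0.34, adjusted p 0.00035), Emb (1.19, SE 0.23) and the chemokine receptor Cxcr4 (1.55, SE 0.31). Ly6c2 rested on 13 and 56 UMIs in IL1α-/- hosts, where free RNA held 143 and 225 CPM. In IL1α-/- 2, 28 of the 56 UMIs came from 5 Gzmc-positive cells. Of the ILC1 list 3 genes were lower (Ltb, Xcl1 and Inpp4b) and 1 higher (the integrin Itgb3) among 19 tested, and of the NK list 3 were higher and none lower among 18 (by edgeR), with Eomes (-0.54, adjusted p 0.31), Tbx21 (-0.17, adjusted p 0.86) and Itga2 (0.05, adjusted p 0.98) not passing.

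Of 16 tested cytokine receptor genes 2 were higher and none lower. Ifngr1, a chain of the interferon gamma receptor, was at 355 and 433 CPM in WT and 1158 and 1101 CPM in IL1α-/- hosts (1.51, SE 0.22, edgeR adjusted p 0.00013). Free RNA of Ifngr1 was also higher, at 137 and 173 against 297 and 412 CPM. Il18rap, which transmits interleukin 18, was higher (1.01, SE 0.25), and its partner Il18r1 did not pass (0.54, adjusted p 0.32). Icos was at 35.4 and 29.4 against 139 and 237 CPM (2.57, SE 0.37), Cd28 was higher by 1.72 (SE 0.35), and Ctla4 was at 12.7 and 19.6 against 81.0 and 255 CPM (3.39, SE 0.47, adjusted p 0.00012). T cells are the main source of these 3 transcripts, and free RNA of Ctla4 was 78.2 and 88.2 CPM in WT and 217 and 296 CPM in IL1α-/- tumours, above the ILC1-like level in each. Gpr132, a receptor for lysolipids and acids, was at 19.8 and 25.0 against 185 and 209 CPM (3.11, SE 0.38), with free RNA at 75.1, 49.9, 161 and 308 CPM. The part of free RNA in these values was not tested.

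Transcription factors moved in 1 direction where they passed: of 28 tested 5 were higher and none lower (by edgeR). The nuclear receptor Rora, used by helper-like innate lymphoid cells, was at 83.5 and 95.8 against 220 and 455 CPM (1.94, SE 0.29, adjusted p 0.00020). Nr4a3 (1.59, SE 0.25) and Nr4a2 (1.06, SE 0.26), induced by receptor signalling, and Ikzf2, or Helios (1.30, SE 0.32), were also higher. Outside the list, Crem, a factor of cyclic AMP signalling, was at 115 and 106 against 451 and 446 CPM (2.03, SE 0.25, adjusted p 3.3e-05), and Fosl2, an AP-1 subunit, at 377 and 269 against 1123 and 937 CPM (1.67, SE 0.23). Mxd1, a MYC antagonist, was higher (2.04, SE 0.26), as was Vps37b (1.60, SE 0.21). Free RNA of Crem rose too, from 65.3 and 62.2 to 204 and 274 CPM. That of Vps37b went from 190 and 155 to 769 and 817 CPM. Free RNA of Fosl2, Rora, Nr4a3, Nr4a2 and Mxd1 was also higher in both IL1α-/- tumours, and that of Ikzf2 overlapped. Each of these genes lay above its free RNA level in each tumour, and the part of free RNA was not tested. Dusp2, a phosphatase of MAP kinases, was the 1 of 14 immediate early genes that passed, and it was lower, at 556 and 444 against 185 and 127 CPM (-1.70, SE 0.29). Dusp2 lies on chromosome 2 (127336159 to 127338376), and its free RNA was at 88.6 and 87.8 against 128 and 148 CPM.

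Genes of interleukin 1 reception were sparse. Il1r1 had 1 UMI in 452 cells, Il1rap 27 and Myd88 31, and none of the 3 passed the filter on low counts. Of the 14 genes of the interleukin 1 list 5 were tested, and Irak2, a kinase downstream of the receptors, was higher at 28.3 and 53.4 against 150 and 118 CPM (1.66, SE 0.41, edgeR adjusted p 0.023), on 13 UMIs in each IL1α-/- tumour. Of 15 tested NF-kB genes Tnfaip3, its feedback inhibitor A20, was higher (1.10, SE 0.24) and none was lower. Vegfa (1.24, SE 0.25) and Hif1a (1.18, SE 0.31) were higher among 14 hypoxia and glycolysis genes, though Hif1a lay below its free RNA level in each tumour. Free RNA of Irak2, Tnfaip3, Vegfa and Hif1a was also higher in both IL1α-/- tumours, and its part in these values was not tested. Of 90 ribosomal protein genes 19 were lower and none higher.

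Low-count calls went in both directions. Pacsin1 had 117 and 192 UMIs in WT and 3 and 0 in IL1α-/- hosts, a ratio of 12.4 (95% counting interval 4.22 to 60.7), and Hivep3 had 81 and 86 against 0 and 2 UMIs (10.1, 2.75 to 84.0). The lipase Mgll (-1.89, SE 0.39) and the mitochondrial protein C1qbp (-2.57, SE 0.52) were lower. Samd11 was higher (4.31, SE 0.64) on 1, 4, 5 and 8 UMIs, Irf7, an interferon response factor (2.03, SE 0.57), on 12, 12, 7 and 5 UMIs, and the centromere gene Cenpa (2.27, SE 0.46) on 13, 21, 9 and 11 UMIs. Free RNA of Samd11, Irf7 and Cenpa was also higher in both IL1α-/- tumours. Each of these genes lay below its free RNA in both WT tumours, as did Irf7 in IL1α-/- 2 (45.5 against 60.4 CPM). The part of free RNA in these calls was not tested. With more UMIs, the galectin Lgals3 was lower (-1.29, SE 0.24).

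**Figure D4:**
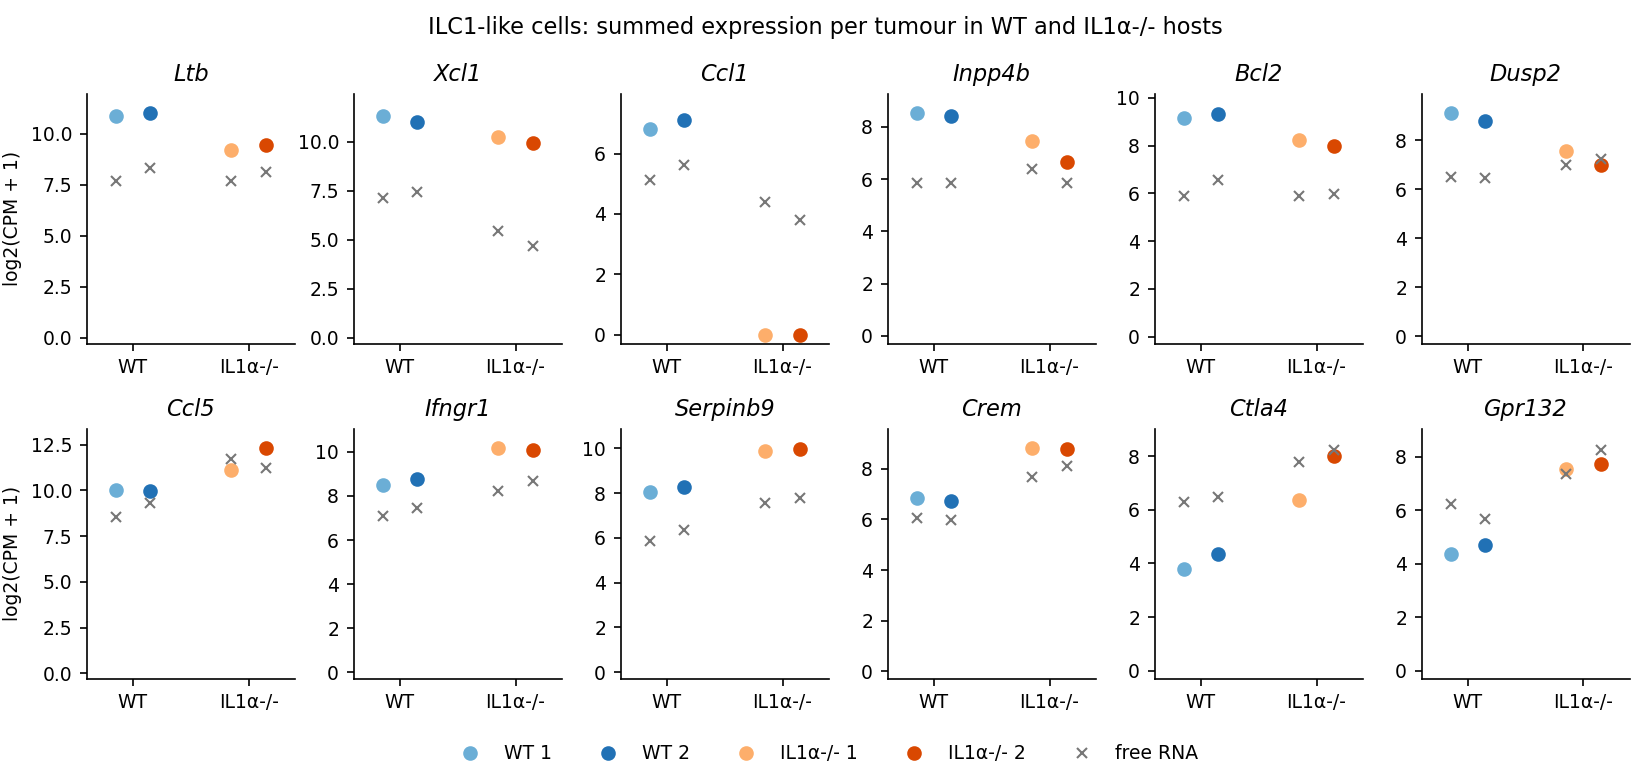
ILC1-like cells: summed expression of 12 genes per tumour, as log2(CPM + 1), in WT and IL1α-/- hosts. Filled points are ILC1-like cells of single tumours and grey crosses are free RNA of the same tumour. Ltb, Xcl1, Ccl1, Inpp4b, Bcl2 and Dusp2 lie lower in IL1α-/- hosts, the other 6 lie higher, and the crosses for Ctla4 lie above the points.

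Markers of other cells were measured in the ILC1-like sums. Summed over 8 fibroblast genes they were 54.2, 2491, 213 and 26.7 CPM in WT 1, WT 2, IL1α-/- 1 and IL1α-/- 2, and over 10 tumour epithelium genes 1062, 25.3, 11.9 and 0 CPM, with Lcn2 leading in WT 1. Both lists thus peaked in 1 WT tumour each. With the 10 barcodes holding at least 5 such UMIs left out, 199 genes passed, 186 of them among the 204. Over 12 T cell genes the sums were 1203, 1383, 1517 and 1768 CPM, with Trbc1 leading and Cd4 at 0 in each tumour. In NK cells without ILC1 genes the T cell sums were 1145, 1132, 1178 and 1165 CPM. Over 9 gamma-delta T cell genes the sums in ILC1-like cells were 189, 201, 273 and 178 CPM. Trdc led in WT 1, WT 2 and IL1α-/- 2 and Tcrg-C4 in IL1α-/- 1, while Tcrg-C2, Cd163l1, Sox13 and Blk were at 0 throughout. A UMI of this list was held by 50.0%, 56.7%, 30.4% and 31.6% of ILC1-like cells. In NK cells without ILC1 genes these shares were 45.1%, 42.3%, 23.3% and 28.6%. With no Trdc or Tcrg-C UMI allowed, 93, 87, 42 and 28 ILC1-like cells remained. In that setting 126 genes passed, and Bcl2 (-0.98, edgeR adjusted p 0.055) and Cd28 (1.50, adjusted p 0.056) no longer did.

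Whether the host difference itself differed between ILC1-like cells and NK cells without ILC1 genes was tested as an interaction. Of 7741 genes 2 passed (0.0258%) by edgeR's quasi-likelihood test, 1 higher (0.0129%) and 1 lower (0.0129%), 361 had an unadjusted p under 0.05, and DESeq2 called 1. Of the 204 genes called in ILC1-like cells 1 passed the interaction (Ly6a) and 55 had an unadjusted p under 0.05. For the others no difference from NK cells was detected with 2 tumours per group, which does not show that the populations responded alike. Xcl1 in NK cells was at 960 and 826 CPM in WT and 481 and 262 CPM in IL1α-/- hosts, and its interaction was 0.23 (SE 0.18, adjusted p 0.94).

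Gzmb (chromosome 14, 56258838 to 56262260), the main apoptosis-inducing granzyme, was at 267, 744, 236 and 367 CPM in ILC1-like cells and at 167, 593, 563 and 850 CPM in NK cells. In each WT tumour ILC1-like cells were above NK cells and in each IL1α-/- tumour they were below. The difference of differences was -1.69 (SE 0.22, edgeR adjusted p 0.00015), and the call was lost without IL1α-/- 1 and without IL1α-/- 2. Gzmb also ran with Gzmc, a gene of the gate. In ILC1-like cells without a Gzmc UMI, Gzmb was at 147, 406, 186 and 365 CPM in the same order of tumours. These levels, scaled in a separate fit, lay below the NK cells of each tumour, and by more in the IL1α-/- tumours. The part of the Gzmc-positive cells in the difference of differences was not tested. Ly6a (chromosome 15, 74994877 to 74998031), which encodes Sca-1, was at 6.92, 86.9, 112 and 323 CPM in ILC1-like cells and 60.6, 124, 40.8 and 64.0 CPM in NK cells (3.08, SE 0.47, adjusted p 0.0022). Free RNA of Ly6a was 206, 207, 397 and 385 CPM, above both populations, and with barcodes of at least 5 tumour epithelium and fibroblast UMIs left out the value was 0.11 (adjusted p 0.996).

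**Figure D5:**
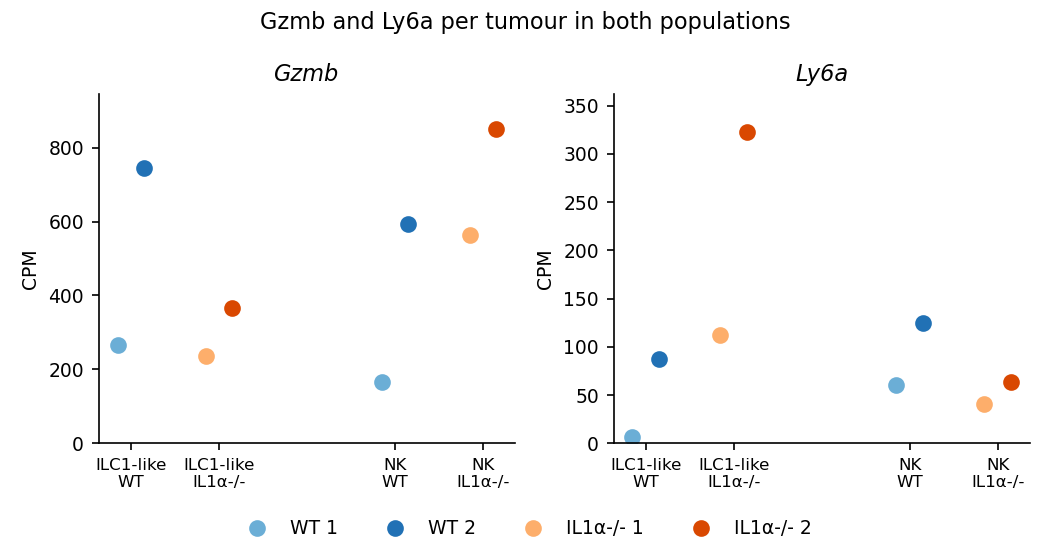
CPM of Gzmb and Ly6a in ILC1-like cells and in NK cells without ILC1 genes, with 1 point per tumour. Gzmb in NK cells is 167 and 593 CPM in WT and 563 and 850 CPM in IL1α-/- tumours, and in ILC1-like cells 267 and 744 against 236 and 367 CPM.

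Among themselves, ILC1-like cells split by Gzmc detection into 26, 41, 9 and 5 Gzmc-positive cells and 154, 137, 47 and 33 without it in WT 1, WT 2, IL1α-/- 1 and IL1α-/- 2. Of 2408 genes tested within tumours 13 passed (0.540%), 8 higher in Gzmc-positive cells (0.332%) and 5 lower (0.208%). Gzmb was at 1109, 2085, 618 and 728 CPM in Gzmc-positive cells and 147, 406, 186 and 365 CPM in the others, without overlap (2.34, SE 0.20, edgeR adjusted p 6.0e-08). Prf1 was higher in the fit (0.81, SE 0.19) and in 3 of 4 tumours, with IL1α-/- 1 at 185 against 405 CPM. Ly6c2 (1.57, SE 0.29), the costimulatory receptor Tnfrsf9 (1.24, SE 0.23) and Ctla2a, an inhibitor of cysteine proteases (0.56, SE 0.10), were higher. Ccl1 was at 351 and 546 CPM against 80.3 and 5.25 CPM in WT 1 and WT 2 and at 0 in both IL1α-/- tumours (3.60, SE 0.48).

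Ccl5 was at 785, 537, 1977 and 3418 CPM in Gzmc-positive cells and 1321, 1411, 2718 and 6286 CPM in the others, lower in each tumour (-0.96, SE 0.12). Il7r, the interleukin 7 receptor, was lower too, at 27.7, 4.44, 0 and 56.0 CPM against 136, 59.5, 169 and 290 CPM (-2.79, SE 0.51, edgeR adjusted p 0.0035). Its Gzmc-positive levels rested on 3, 1, 0 and 1 UMIs and lay below free RNA of 65.3, 56.7, 72.6 and 110 CPM. Malat1 was lower in Gzmc-positive cells (-0.29, SE 0.04), and so was the fibroblast gene Col3a1 (-5.10, SE 0.52), which stood at 1150 CPM in Gzmc-negative cells of WT 2, and the part of such RNA in the split was not tested. Gzmc-positive cells were deeper in each tumour, with median UMIs of 5141, 6803, 1940 and 3506 against 3646, 4983, 1251 and 2651, and IL1α-/- 2 contributed 5 cells. Without WT 1 5 genes passed and without WT 2 6.

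To read Itga1, Cxcr6 and Gzmc outside the choice of cells, UMIs were summed over gated NK lineage cells, ILC1-like or not, and the hosts compared. Itga1 was at 52.8, 55.8, 51.3 and 12.9 CPM (-0.93, SE 0.37, edgeR adjusted p 0.12), Cxcr6 at 77.9, 62.8, 68.4 and 52.6 CPM (-0.24, SE 0.21, adjusted p 0.51) and Gzmc at 33.7, 118, 45.6 and 112 CPM (0.13, SE 0.44, adjusted p 0.90). None of the 3 passed, and for Itga1 it was IL1α-/- 2 alone that lay well below the WT tumours. The Gzmc level of IL1α-/- 2 came from 5 cells. Of 8886 genes 968 passed (10.9%), 516 higher (5.81%) and 452 lower (5.09%). Among the lower ones were Ltb (-1.68, SE 0.17), Xcl1 (-1.44, SE 0.22), Inpp4b (-1.94, SE 0.25) and Tnfsf10, at 146, 153, 68.4 and 11.7 CPM (-2.09, SE 0.39, adjusted p 0.0034). Of the ILC1 list 3 genes were higher and 5 lower among 22 tested. This comparison was added after values had been seen, and 382 genes passed without IL1α-/- 2, 458 without IL1α-/- 1 and 490 without WT 2.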

How the data were processed

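Single-cell RNA from 4 tumours was deposited as matrices of UMI counts per barcode on a combined human and mouse reference, made by the authors with Cell Ranger 3.1.0 and mm10, per the submitters' processing notes. The deposited values are raw counts, and no normalization precedes them. Only mouse genes were used, and a barcode was kept with 500 or more UMIs, 250 or more genes and no more than 20% of UMIs from mitochondrial genes. Doublets were not removed in the reported values; Scrublet removal was an alternative.

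Cells were gated as the report states, and counts were summed per tumour and population, since cells are not replicates. Sums were compared with edgeR 4.0.16 (quasi-likelihood F test, TMM scaling, filterByExpr, BH over all genes outside the gate, threshold 0.05). CPM use TMM-scaled totals of each comparison, so a gene's CPM can differ slightly between comparisons. Free RNA CPM come from barcodes with at most 100 UMIs. Shares were compared by an exact permutation test over tumours. Fits were tested on simulated data. Alternatives were DESeq2 1.42.0, RLE scaling, no filter, a replicate block, other gates, thinning to 800 UMIs and leaving out each tumour. Gene positions are GENCODE vM21 on GRCm38 (mm10).

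Members and gene lists were chosen with earlier results of these data known. Named genes, without Gm, Rik, ribosomal protein and mitochondrial genes, were the 12 higher and 12 lower with the smallest adjusted p among those whose tumours did not overlap or change sign, called genes of the lists, and 24 fixed genes. Some genes of the lists are counted but not reported here by name.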

Additional observations from a re-analysis of the deposited data

Results flagged for a closer look

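The host difference in Gzmb (IL1α-/- minus WT) in ILC1-like cells minus that in NK cells without ILC1 genes was -1.69 on the log2 scale (edgeR's quasi-likelihood test of the interaction, BH-adjusted p 0.00015), and the call was lost without IL1α-/- 1 and without IL1α-/- 2. For Ly6a this value was 3.08 (adjusted p 0.0022), and its free RNA lay above both populations in each tumour. With barcodes of at least 5 tumour epithelium and fibroblast UMIs left out, the Ly6a value was 0.11 (adjusted p 0.996). In ILC1-like cells without a UMI of the gate gene Gzmc, Gzmb lay below the NK cells of each tumour, WT tumours included. UMIs assigned to human genes, which no comparison used, numbered 1381 in WT 1, 1514 in WT 2, 509 in IL1α-/- 1 and 1037 in IL1α-/- 2, out of 23464120, 29001333, 6705368 and 15298532 UMIs.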

How the results depend on the processing

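Counts are of genes with an adjusted p under 0.05. DESeq2 called 69 for the host difference in ILC1-like cells, 124 against NK cells, 55 against Cd3-positive counterparts, 1 for the interaction, 6 for the Gzmc split and 376 for the host difference in gated NK lineage cells. Leaving out 1 tumour gave 13 to 187, 175 to 342, 52 to 144, 0 to 7, 5 to 15 and 382 to 842 in the same order. No filter on low counts gave 244 against Cd3-positive counterparts, 4 for the interaction and 46 for the Gzmc split. At least 2 UMIs of the ILC1 genes gave 96 for the host difference and 11 for the interaction. Allowing no Trdc or Tcrg-C UMI gave 126 for the host difference and 565 in the gated lineage, Ncr1 of at least 1 UMI gave 89 against Cd3-positive counterparts, and thinning gave 28 against NK cells. Scrublet removal, no T cell receptor or coreceptor UMI, and few epithelium and fibroblast UMIs each gave 1 for the interaction.

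The share difference of kept barcodes (IL1α-/- minus WT) was -1.94 points with at least 2 UMIs of the ILC1 genes, -1.17 with no Trdc or Tcrg-C UMI and -0.73 when thinned. The share difference in the gated lineage was -12.1 with at least 1000 UMIs per barcode, -11.6 with at least 2 UMIs of the ILC1 genes and -3.61 when thinned.

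Signs that turned belonged to genes not passing, except Igkc. The host log2 difference of Prf1 was 0.016 with at least 1000 UMIs, 0.029 with Ncr1 of at least 1 UMI, 0.074 with no T cell receptor or coreceptor UMI and 0.13 with no Trdc or Tcrg-C UMI. Ccl4 was -0.045 with Ncr1 of at least 1 UMI and -0.21 with at least 2 UMIs of the ILC1 genes. Itga2 was -0.065 with no filter, -0.39 with at least 2 UMIs of the ILC1 genes and -0.21 with no Trdc or Tcrg-C UMI, and Il18r1 was -0.047 with at least 2 UMIs of the ILC1 genes. Igkc against NK cells was 0.042 by DESeq2. In the gated lineage Cxcr6 was 0.086 with no Trdc or Tcrg-C UMI, and Gzmc was -1.80 after Scrublet removal. That removal left 4 of the 5 Gzmc-positive ILC1-like cells of IL1α-/- 2. With 1 tumour left out, host values ran from -1.31 to 0.17 for Gzmb, -0.41 to 0.24 for Prf1, -0.20 to 0.82 for Ccl4, -0.55 to 0.18 for Tbx21 and -0.58 to 0.39 for Itga2, and from -0.75 to 1.30 for Gzmc in the gated lineage. The causes were not tested.

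With the replicate number as a block, 250 genes passed for the host difference in ILC1-like cells (181 shared with the 204) and 1628 in the gated lineage. Deviations of same-numbered tumours correlated at 0.0064 over 5576 genes and 0.115 over 8891 genes, and the labels give these tumours no more than a number in common. The IL1α-/- sums held 84369 and 112557 UMIs, which limits what the host comparison can detect among low genes.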

Other observations

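In gated NK lineage cells as a whole, 10 of 23 tested genes of the conventional NK list were higher in IL1α-/- hosts and none was lower, by edgeR's quasi-likelihood test with BH adjustment, beside 10.9% of all genes called in either direction. Serpinb9b was at 8.22 and 19.9 CPM in WT and 66.5 and 84.2 CPM in IL1α-/- hosts (2.41, SE 0.32, adjusted p 0.00040), and Cma1 at 11.7 and 34.1 against 96.9 and 108 CPM (2.14, SE 0.33). Of 16 tested trafficking genes 7 were higher, among them Itga4 (1.38, SE 0.19) and Cxcr4 (1.42, SE 0.25).

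The tumour epithelium genes Csn3, Krt8 and Krt18 were lower in IL1α-/- hosts: Csn3 was at 520 and 137 CPM in WT and had no UMI in IL1α-/- gated cells, and its free RNA was at 1580 and 810 against 130 and 4.08 CPM. Eif3j1 was at 21.5 and 30.1 CPM in WT against 226 and 170 CPM in IL1α-/- hosts, and its close copy Eif3j2 was at 51.7 and 46.6 against 0 and 2.34 CPM. Since reads can be split between such copies, the level of each gene alone is uncertain.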
